A study of Mus musculus with 36 samples.

Results

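The genes described here are those of the proteasome and the immunoproteasome. They were taken as every gene of the deposited count table whose symbol is Psm, 1 of the letters a to g, and a digit, which gave 50 of 24781 genes. They cover the alpha ring (7 genes) and structural beta subunits (4 genes) of the 20S core, its constitutive catalytic subunits (3 genes) and the immunoproteasome's catalytic subunits (3 genes). Also included are 6 ATPases and 11 other subunits of the 19S cap, with 3 cap chaperones, the PA28 activator genes (3 genes), 3 further activators or inhibitors and 4 chaperones of core assembly. Psma8 and Psmb11, which are tissue-restricted core subunits, and Psmc3ip, which shares the name stem without being a subunit, complete the list.

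The proteasome degrades ubiquitin-tagged proteins inside a barrel whose catalytic beta subunits cleave the chain. In immune cells, and in other cells under interferon gamma, Psmb8, Psmb9 and Psmb10 take the places of Psmb5, Psmb6 and Psmb7 in newly built barrels, and the PA28 ring of Psme1 and Psme2 products can dock in place of the 19S cap. Immunoproteasomes alter which peptides are made for presentation on MHC class I, and they are abundant in antigen-presenting cells and lymphocytes.

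The libraries came from digital RNA sequencing, which counts molecules by their barcodes, of 100 sorted cells per library. Mice carried MC38 tumours, a mouse colon adenocarcinoma line inoculated in the skin of the flank, and cells were sorted on day 7. Tumour-associated macrophages (TAMs; CD45+CD11b+F4/80high) and CD8+ T cells (CD45+TCRbeta+CD8+) were each sorted from WT mice, from B cell-deficient muMt-/- mice and from muMt-/- mice implanted with a GABA pellet. Each of the 6 groups held 6 libraries, 1 per mouse, so 36 in all. The muMt-/- strain was on the C57BL/6J background, whereas WT mice of the study were C57BL/6J or C57BL/6N, and which of these gave the present libraries is not given in the sources used here. Mice of either sex, 2 to 5 months old and matched for age and sex, were used in the study, and the age of each group is likewise not given. The labels name no treatment for the WT and the untreated muMt-/- groups, which the methods describe as implanted with placebo pellets. B cells were missing from birth in muMt-/- mice, so the groups compare a lifelong absence. The deletion itself was not checked, since neither sorted population is a B cell. Libraries are named by group and replicate number.

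Depth differed between cell types and between groups. Molecules per library ran from 206394 to 304100 (median 242756) in WT TAMs, from 100254 to 253608 (median 149960) in muMt-/- TAMs and from 151856 to 262606 (median 192775) in GABA-implanted muMt-/- TAMs. In CD8+ T cells they ran from 22896 to 76898 (median 42066) in WT mice, from 51064 to 77839 (median 67122) in muMt-/- mice and from 65356 to 98015 (median 80283) with GABA. Proteasome genes gave a median of 2067 molecules per library in WT TAMs and 303 in WT CD8+ T cells, so single genes rested on far fewer molecules in the T cells.

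The sorted populations were checked against marker genes. All 15 macrophage markers were found in each TAM group, Apoe the most abundant. Together they took a median of 1.60%, 1.25% and 1.44% of molecules in WT, muMt-/- and GABA-implanted mice. In CD8+ T cell libraries 11 of 12 T cell markers were found in each group, Thy1 the most abundant and Trat1 at 0. As a list they took a median of 0.485%, 0.424% and 0.415%. The same markers summed to 38, 15 and 14 molecules over the TAM groups. Macrophage markers reached medians of 0.0349%, 0.120% and 0.171% in the CD8+ T cell libraries, where Ctsb was the most abundant and Adgre1, Mertk and Mrc1 were at 0 in the WT group. The highest values were 0.135% in WT replicate 5, 0.468% in muMt-/- replicate 1 and 0.338% in GABA-implanted replicate 3. That muMt-/- library held 297 of the 715 macrophage marker molecules of its group, with T cell markers at 0.192%. B cell markers summed to 11, 8 and 12 molecules over the TAM groups and to 2, 0 and 5 over the CD8+ T cell groups, with Cd79a, Pax5 and Blk at 0 in every group. Of the tumour or epithelial list, Epcam was at 0 in all TAM groups and Cdh1 made up 66 of 67, 92 of 92 and 79 of 80 molecules, against 7, 5 and 24 molecules of the list in CD8+ T cells. Fibroblast or endothelial markers, led by Col3a1, summed to 1779, 846 and 1303 molecules in TAMs and to 112, 285 and 138 in CD8+ T cells. Single libraries carried the TAM sums, with 1347 molecules in WT replicate 6, 424 in muMt-/- replicate 3 and 693 in GABA-implanted replicate 2. Neutrophil markers summed to 74, 54 and 72 molecules in TAMs (48 of the first in replicate 5) and to 20, 32 and 27 in CD8+ T cells (19, 15 and 11 of them in replicates 6, 1 and 1). Dendritic cell markers gave 11, 28 and 29 molecules in TAMs, and 80, 98 and 119 in CD8+ T cells, where Ccr7 accounted for 79, 95 and 117 of them. NK cell markers gave 0, 2 and 2 molecules in TAMs and 8, 20 and 27 in CD8+ T cells, led by Klre1.

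RNA quality measures moved with group in TAMs. The ribosomal RNA precursor Rn45s took a median of 9.35% of molecules in WT TAMs (7.07% to 11.4%), 13.3% in muMt-/- TAMs (12.5% to 18.8%) and 8.68% with GABA (6.96% to 19.9%). A list of 4 nuclear RNAs, all found and led by Malat1, took medians of 0.366%, 0.577% and 0.388%. Ribosomal protein genes took medians of 9.89%, 7.50% and 9.45%. Every muMt-/- TAM library thus had more Rn45s than any WT TAM library, and the part of RNA quality in the differences below was not tested.

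A few libraries stood apart in their proteasome genes. The ratio of Psme1 to Psme2 molecules, whose products form 1 ring, was 0.2 in muMt-/- TAM replicate 4, 0.378 in GABA-implanted TAM replicate 1 and 0.340 in GABA-implanted CD8+ T cell replicate 1. Group medians of that ratio were 1.48, 0.979 and 1.26 in TAMs and 1.58, 1.64 and 1.52 in CD8+ T cells. The first of these libraries had 18.8% Rn45s and the next 19.9%, the highest values of their groups. GABA-implanted TAM replicate 1 also had the lowest Psmb8, Psmb9, Psmb10 and Psmb6 levels of its group.

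Across the 36 libraries all 50 genes gave at least 1 molecule in each cell type, as did 12502 of all 24781 genes. A gene was tested where its mean normalized level exceeded 1, which held for 48 proteasome genes in TAMs, 47 in CD8+ T cells and 47 over both. Psma8, an alpha subunit of germ cells, gave 8 molecules in 18 TAM libraries and 1 in 18 CD8+ T cell libraries. Psmb11, the catalytic subunit of thymic epithelium, gave 3 and 1. Psmc3ip, a recombination factor, gave 36 and 10 and was tested in TAMs only. The tissue-restricted core subunits were therefore at or near the detection limit in either cell type.

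Normalized levels, in molecules per library after scaling to a common depth within a cell type, are given as means over 18 libraries and were not divided by transcript length. In TAMs the alpha ring ran from 28.7 (Psma6) to 60.7 (Psma7) and the structural beta subunits from 38.3 (Psmb3) to 50.4 (Psmb1). The constitutive catalytic subunits ran from 25.8 (Psmb6) to 39.4 (Psmb5), and their immunoproteasome counterparts from 21.7 (Psmb9) to 122 (Psmb8). The 19S ATPases, which unfold substrates, ran from 13.1 (Psmc4) to 32.5 (Psmc1), and the other cap subunits from 13.7 (Psmd13) to 35.8 (Psmd2). PA28 genes ran from 70.7 (Psme2) to 84.7 (Psme1). Assembly chaperones were low, from 4.06 (Psmd9) to 6.23 (Psmd10) for the cap and from 3.41 (Psmg1) to 10.3 (Psmg4) for the core, beside 4.79 for the inhibitor Psmf1 and 22.1 for the activator Psme4. Lower still were Psmc3ip (1.84) and the untested Psma8 (0.355) and Psmb11 (0.143).

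On their own scale the CD8+ T cell libraries gave alpha ring levels from 9.05 (Psma6) to 16.97 (Psma7) and structural beta levels from 8.40 (Psmb2) to 18.2 (Psmb1). Catalytic subunits ran from 7.55 (Psmb6) to 12.6 (Psmb5) for the constitutive set and from 6.47 (Psmb9) to 30.0 (Psmb8) for the immunoproteasome set. Psmb8 was sampled best of the catalytic genes in each cell type. The ATPases ran from 3.90 (Psmc5) to 8.96 (Psmc3), the other cap subunits from 3.92 (Psmd6) to 12.1 (Psmd2) and PA28 genes from 16.9 (Psme2) to 24.7 (Psme1). Cap chaperones (1.101 for Psmd9 to 2.33 for Psmd10), core chaperones (1.27 for Psmg3 to 2.73 for Psmg4) and Psmf1 (1.24) lay close to the limit for testing, with Psme3 at 8.06.

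Several of these genes share sequence or genomic position. Psmb8 and Psmb9 lie in the MHC region at chr17:34198195-34201454 and chr17:34182030-34187330 (build GRCm38), on opposite strands, beside the peptide transporter gene Tap1. Psmb10 lies at chr8:105935728-105938392, and Psme1 (chr14:55578494-55581527) and Psme2 (chr14:55587440-55591101) are neighbours. In the GENCODE annotation, whose gene ends can differ from the RefSeq positions given here, 24 of the 50 genes overlap another gene. These include Psmb8 with the antisense Gm20496, Psmb10 with the antisense Gm16156, Psmb9 with Tap1, Psme1 with Emc9, Psmb5 with Mir686 and Psmb7 with Nek6. Counting used refFlat genes, for which overlaps were not examined, and the RefSeq starts of Psmb9 and Tap1 lie 225 bases apart. The strand used in counting is not stated, so molecules of genes that overlap in refFlat as well cannot be told apart. Psmb3 (chr11:97703434-97713500), Psmb6 and Psme2 overlap no gene in GENCODE. Psme2 is uncertain for another reason. Its copy Psme2b (chr11:48945345-48946410) matched it at 711 of 716 aligned bases, and the copies gave 1725 and 1788 molecules, at a ratio between 0.824 and 1.33 in every library. Counts of called or non-overlapping genes below hold both copies, which are not separate results.

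The first comparison asked how TAMs of B cell-deficient mice differ from those of WT mice. Proteasome genes took 0.803% to 0.886% of molecules in WT TAMs (median 0.846%) and 0.626% to 0.789% in muMt-/- TAMs (median 0.743%), so every muMt-/- library lay below every WT library. That separation was lost with the 10 most abundant genes taken out of the total, where the ranges were 0.946% to 1.043% and 0.829% to 0.980%. GABA-implanted libraries ran from 0.645% to 0.895% of all molecules (median 0.812%) and spanned both. Whether less of each transcript or fewer of the cells that carry it lies behind a lower share cannot be told apart in sorted pools. With edgeR's quasi-likelihood test and Benjamini-Hochberg adjustment over all 9469 genes tested, no proteasome gene was higher and 2 of 48 (4.17%) were lower in muMt-/- TAMs, against 1.02% of all genes called lower. At an unadjusted p under 0.05, 7 were lower (14.6%) and none higher, where the background was 8.15% and 6.72% of all genes, and DESeq2's Wald test also called 2. The median log2 fold change was -0.19 over the 48 genes and -0.05 over all genes, with 33 genes below 0.

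Psmb10, the immunoproteasome subunit with trypsin-like activity, fell in muMt-/- TAMs. Its normalized level ran from 54.5 to 74.8 (median 70.5) in WT TAMs, from 29.3 to 48.9 (median 42.5) in muMt-/- TAMs and from 17.3 to 59.1 (median 51.0) with GABA. All 6 muMt-/- libraries lay below all 6 WT libraries, while the GABA-implanted libraries overlapped both groups. The log2 fold change of muMt-/- against WT was -0.76 (SE 0.197), with an adjusted p of 0.0300 in edgeR's quasi-likelihood test. Without muMt-/- replicate 4 and GABA-implanted replicate 1 it was -0.68, with an edgeR adjusted p of 0.0106. The call was lost on leaving out WT replicate 1, 2 or 6 or muMt-/- replicate 1, 2 or 4, with edgeR adjusted p between 0.0269 and 0.0969 over the 12 such fits. With log2 molecules per library as a covariate, the change was -0.43 (edgeR adjusted p = 0.5996).

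Psmb3, a structural beta subunit without catalytic activity, was the other gene that fell. It ran from 34.1 to 48.7 (median 45.8) in WT TAMs, from 16.96 to 35.7 (median 27.4) in muMt-/- TAMs and from 32.4 to 51.8 (median 45.5) with GABA. The muMt-/- and WT ranges met only at their edges, and the GABA-implanted range held that of WT. The log2 fold change was -0.66 (SE 0.183, edgeR adjusted p = 0.0442). It was -0.63 without muMt-/- replicate 4 and GABA-implanted replicate 1, where the call was lost (edgeR adjusted p = 0.0629). The call was also lost without WT replicate 1, 3, 4 or 6 or muMt-/- replicate 1, 2, 4 or 5 (edgeR adjusted p from 0.0322 to 0.114 over 12 fits), and with log2 molecules as a covariate (-0.60, edgeR adjusted p = 0.381).

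The other immunoproteasome genes gave lower estimates that did not pass. Psmb9, which takes the place of Psmb6, ran from 23.1 to 40.8 (median 27.9) in WT TAMs, from 5.58 to 29.5 (median 15.1) in muMt-/- TAMs and from 2.66 to 29.9 (median 24.8) with GABA. Its groups overlapped, at a log2 fold change of -0.85 (SE 0.307, edgeR adjusted p = 0.143). A fit on the 12 libraries of the comparison called it (edgeR adjusted p = 0.0452), as did a fit without the filter on low levels (edgeR adjusted p = 0.00774). Psmb8, the chymotrypsin-like subunit, ran from 109 to 154 (median 136) in WT TAMs, 85.1 to 144 (median 113) in muMt-/- TAMs and 63.7 to 139.9 (median 130.1) with GABA. These ranges overlapped widely, with a log2 fold change of -0.22 (edgeR adjusted p = 0.620), or -0.14 without muMt-/- replicate 4.

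Psme1, which encodes the alpha subunit of PA28, ran from 83.6 to 115 (median 100.5) in WT TAMs, 16.7 to 94.8 (median 71.4) in muMt-/- TAMs and 22.6 to 129 (median 95.6) with GABA. The lowest values were those of the libraries named above, muMt-/- replicate 4 and GABA-implanted replicate 1. Its log2 fold change was -0.57 (SE 0.259, edgeR adjusted p = 0.284), or -0.38 without those libraries (edgeR adjusted p = 0.267), and the unfiltered fit called it (edgeR adjusted p = 0.0300). Psme2, the beta subunit, ran from 59.6 to 77.0 (median 67.2), from 52.8 to 83.7 (median 79.7) and from 59.7 to 80.5 (median 69.0) in the same order of groups. Its groups overlapped, with a log2 fold change of 0.13 (edgeR adjusted p = 0.764), so the PA28 partners had estimates of opposite sign.

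None of the constitutive catalytic subunits passed. Psmb5 ran from 32.4 to 37.1 (median 34.5) in WT TAMs, 33.9 to 44.8 (median 40.2) in muMt-/- TAMs and 35.7 to 50.4 (median 43.0) with GABA, at a log2 fold change of 0.18 for muMt-/- against WT (edgeR adjusted p = 0.660). Psmb6 ran from 22.9 to 36.7 (median 28.7), from 12.6 to 28.6 (median 25.6) and from 10.6 to 29.6 (median 27.1), at -0.32 (edgeR adjusted p = 0.515), or -0.21 without muMt-/- replicate 4. Psmb7, whose place Psmb10 takes, ran from 23.9 to 36.3 (median 29.8), from 20.9 to 47.1 (median 26.8) and from 23.9 to 41.2 (median 30.5), at -0.07 (edgeR adjusted p = 0.928). On leaving out 1 library the Psmb7 estimate ran from -0.21 to 0.004. The levels of all 3 genes overlapped between groups.

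**Figure D1:**
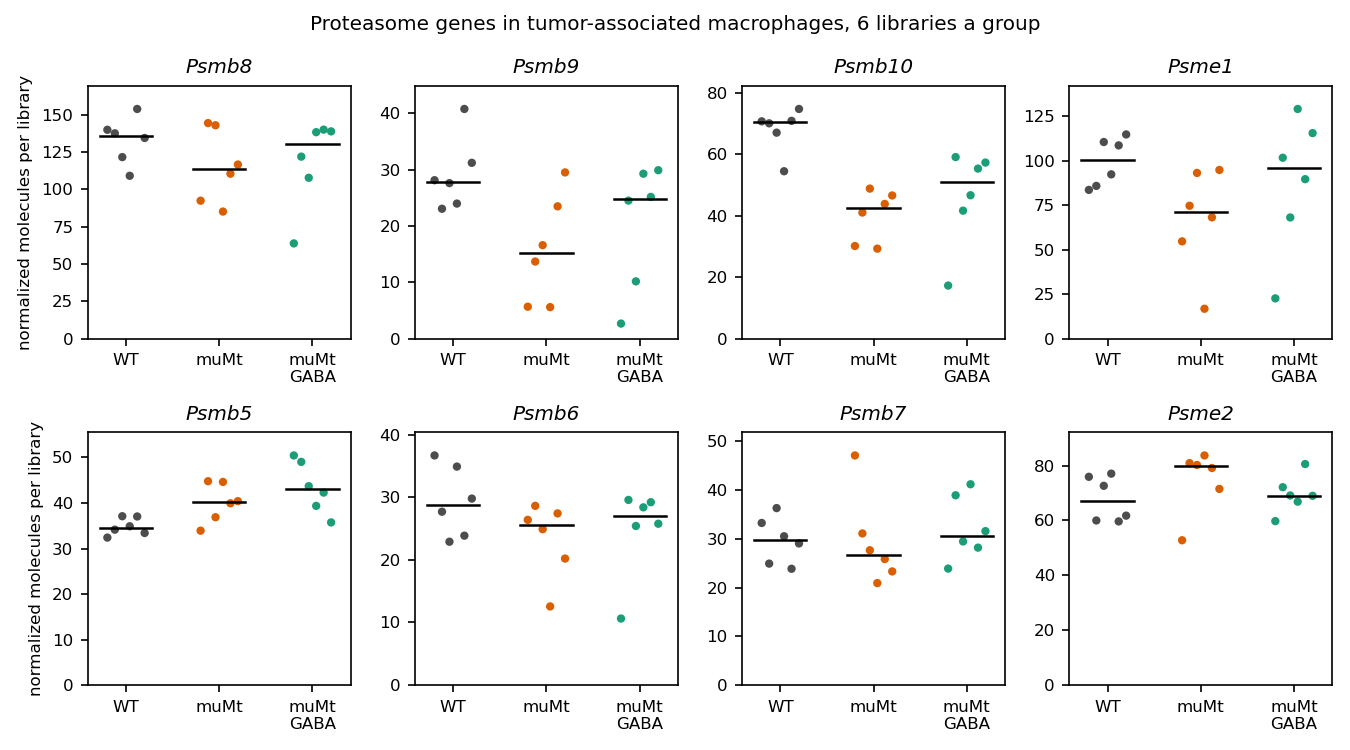
Normalized molecules per library of 8 proteasome genes in TAMs of WT, muMt-/- and GABA-implanted muMt-/- mice. Points are libraries (6 per group) and lines are medians; for Psmb10 the muMt-/- points, up to 48.9, lie below the WT points, from 54.5.

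By role, the immunoproteasome catalytic genes had a median log2 fold change of -0.76 (3 of 3 below 0) and the structural beta genes -0.46 (3 of 4 below 0). The alpha ring had -0.10, with 6 of 7 below 0, and Psma1 (-0.38, edgeR adjusted p = 0.316) was its single gene at an unadjusted p under 0.05. Its levels, from 41.0 to 51.6 in WT and from 29.0 to 40.6 in muMt-/- TAMs, did not overlap. Psma1 and Psmb10 were thus the 2 lower genes without overlap, where 1.33% of all genes were lower without overlap. Constitutive catalytic genes had a median of -0.07, the ATPases -0.07 (from -0.35 to 0.28) and the other cap subunits -0.22 (from -0.48 to 0.28). None of the 17 cap genes passed at the unadjusted threshold. Assembly chaperones of the core spread most, from -0.92 to 0.35, at low levels. The structural subunits Psmb1 (-0.49, edgeR adjusted p = 0.128) and Psmb4 (-0.44, edgeR adjusted p = 0.192) were the remaining genes at an unadjusted p under 0.05.

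Other genes of the pathway were read from fixed lists. Of 10 other subunit and assembly genes, Zfand5, an activator of the 26S proteasome, rose in muMt-/- TAMs, from 17.4 to 28.3 (median 22.2) in WT to 31.1 to 54.6 (median 36.9). All 6 of its muMt-/- libraries lay above the WT libraries (log2 fold change 0.79, SE 0.192, edgeR adjusted p = 0.0193). Of 10 genes from the interferon gamma receptor to Irf1, the transcription factor gene Irf2 rose, from 32.0 to 47.4 (median 37.9) to 37.7 to 77.4 (median 63.3), with overlapping groups (0.68, SE 0.173, edgeR adjusted p = 0.0278). Each was the single call of its list, and 1.02% of all genes were called higher. By edgeR none of 13 ubiquitin and shuttle factor genes, 4 proteasome gene regulators or 10 genes of MHC class I peptide loading passed. At an unadjusted p under 0.05 these gave 2, 0 and 2 genes, where 6.72% of all genes were higher and 8.15% lower. Tap1, the transporter gene beside Psmb9, ran from 59.98 to 93.5 (median 74.0) in WT and from 62.2 to 91.7 (median 70.7) in muMt-/- TAMs (edgeR adjusted p = 0.980).

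GABA was then compared with its absence within muMt-/- TAMs. By edgeR none of the 48 genes passed, against 0.0211% of all genes, and DESeq2 also called 0. At an unadjusted p under 0.05, 2 genes were higher and 0 lower, where 5.15% of all genes were higher and 3.31% lower. The median log2 fold change was 0.14 over the proteasome genes and 0.06 over all genes, with 36 of 48 above 0. The lowest p-values, none of which passed, belonged to Psmb3 (0.67, SE 0.187, unadjusted p = 0.000894, edgeR adjusted p = 0.196), the cap deubiquitinase gene Psmd14 (0.53, edgeR adjusted p = 0.569) and the chaperone gene Psmg2 (0.90, edgeR adjusted p = 0.638). Immunoproteasome estimates were 0.06 for Psmb8, 0.38 for Psmb9 and 0.24 for Psmb10, with edgeR adjusted p of 0.957, 0.795 and 0.798. Leaving out 1 library gave -0.02 to 0.19, 0.21 to 0.57 and 0.15 to 0.39. Psme1 stood at 0.42 and Psme2 at -0.09, and Psmb5, Psmb6 and Psmb7 at 0.13, 0.12 and 0.21, none of which passed. On leaving out 1 library Psme1 ran from 0.22 to 0.60, Psme2 from -0.17 to -0.04, Psmb6 from -0.003 to 0.26 and Psmb7 from 0.12 to 0.34. The pathway lists gave no call by edgeR either. At an unadjusted p under 0.05 they gave 1 of 10 other subunit and assembly genes, 3 of 13 ubiquitin and shuttle factor genes, 0 of 4 regulators, 1 of 10 interferon gamma receptor genes and 1 of 10 peptide loading genes.

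GABA-implanted muMt-/- TAMs were also set against WT TAMs. By edgeR 0 of 48 genes passed, where 0.0739% of all genes did, and by DESeq2 0. At an unadjusted p under 0.05, 3 genes were higher and 1 lower, near the background of 3.74% and 3.28%. Psmb10 was the lower one (-0.52, SE 0.189, unadjusted p = 0.00852, edgeR adjusted p = 0.515). Those higher were the cap chaperone gene Psmd10 (0.81, edgeR adjusted p = 0.579), the nuclear activator gene Psme3 (0.44, edgeR adjusted p = 0.699) and Psmb5 (0.31, edgeR adjusted p = 0.711). Psmb8 was at -0.15, Psmb9 at -0.47, Psme1 at -0.15, Psme2 at 0.04, Psmb6 at -0.20 and Psmb7 at 0.14, none of which passed. Without GABA-implanted replicate 1 Psmb8 was at -0.03, Psmb9 at -0.29, Psmb6 at -0.07 and Psme1, its sign turned, at 0.03. Over the fits that left out 1 library Psme2 ran from -0.01 to 0.08 and Psmb7 from 0.06 to 0.21. The 3 TAM comparisons share groups, so their values are not independent of each other, and the pathway lists again gave no call by edgeR (2, 0, 0, 2 and 1 genes, in the same order of lists, at an unadjusted p under 0.05).

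**Figure D2:**
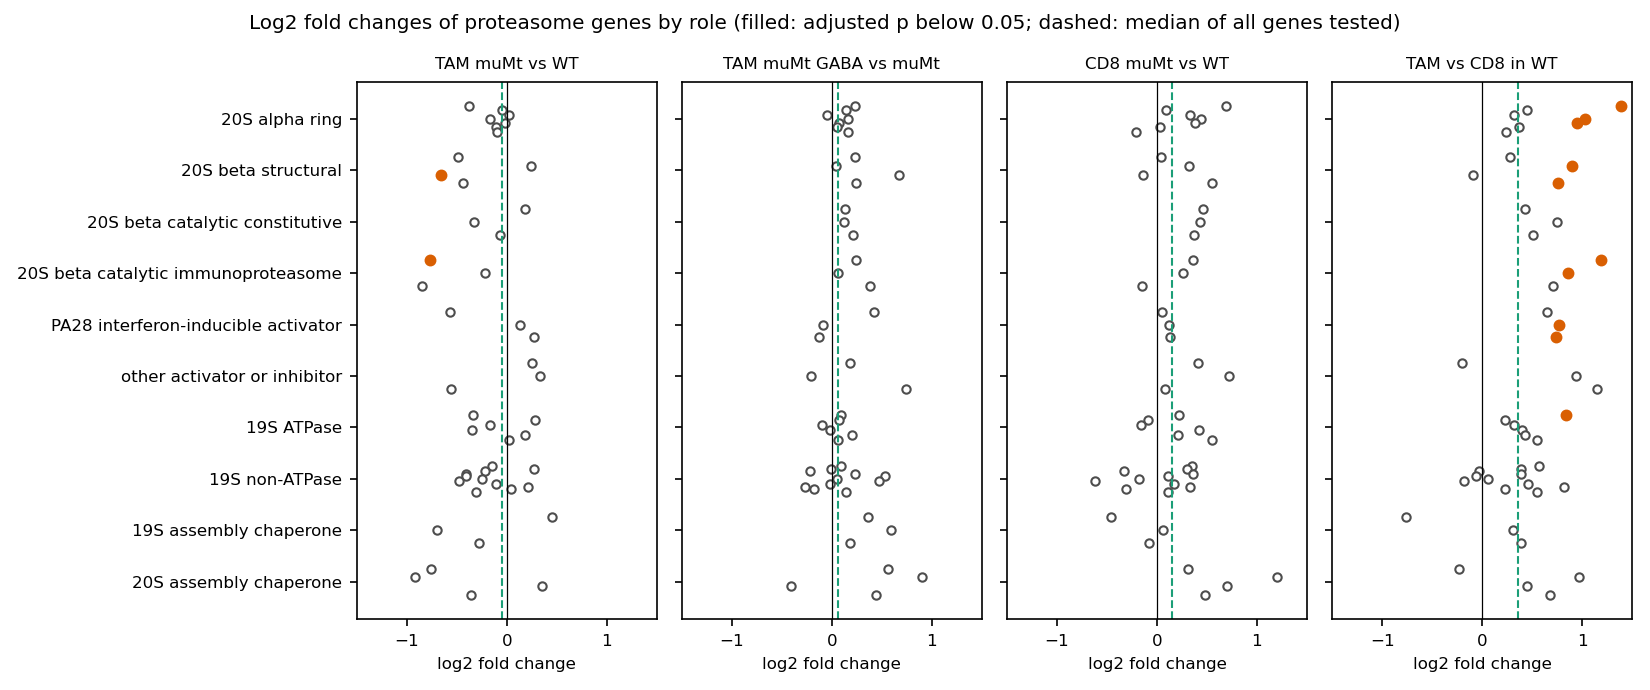
Log2 fold changes of proteasome genes by role in 4 comparisons (muMt-/- against WT TAMs, GABA-implanted against other muMt-/- TAMs, muMt-/- against WT CD8+ T cells, TAMs against CD8+ T cells in WT mice). Filled orange points have an edgeR adjusted p below 0.05 (2, 0, 0 and 10 genes), and the dashed line is the median of all genes tested.

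In CD8+ T cells the same groups gave no call. The median log2 fold change of muMt-/- against WT was 0.15 over all genes and 0.23 over the 47 proteasome genes, of which 26 lay above the all-gene median. By edgeR and by DESeq2 0 genes passed, as did 0.0% of all genes by edgeR. Psma1 alone had an unadjusted p under 0.05, where 5.37% of all genes were higher (log2 fold change 0.69, unadjusted p = 0.0420, edgeR adjusted p = 0.759). Next came Psmb4 (0.55, edgeR adjusted p = 0.832) and Psme4 (0.72, edgeR adjusted p = 0.858), which did not pass. Proteasome genes took a median of 0.716% of molecules in WT, 0.762% in muMt-/- and 0.770% in GABA-implanted CD8+ T cells, with overlapping ranges.

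Psmb8 ran from 19.9 to 36.1 (median 27.3) in WT, 24.7 to 41.5 (median 30.4) in muMt-/- and 21.1 to 38.6 (median 30.9) in GABA-implanted CD8+ T cells. Psmb9 ran from 0 to 9.62 (median 7.38), from 1.64 to 8.33 (median 6.40) and from 0.636 to 11.04 (median 7.93). Psmb10 ran from 4.42 to 15.8 (median 11.2), from 11.2 to 18.3 (median 13.3) and from 7.32 to 13.01 (median 9.18). Groups overlapped for each, and relative to the all-gene median the muMt-/- estimates against WT were 0.11, -0.30 and 0.21 on the log2 scale. The Psmb9 estimate had an SE of 0.458, larger than its own size. Before subtracting the all-gene median, leaving out 1 library gave 0.16 to 0.36, -0.35 to 0.04 and 0.22 to 0.54. Psme1 ran from 16.8 to 34.8 (median 21.97), from 17.99 to 31.4 (median 24.6) and from 11.4 to 39.0 (median 27.4). Psme2 ran from 6.63 to 17.5 (median 16.3), from 10.1 to 17.99 (median 16.9) and from 14.1 to 33.7 (median 18.1). Relative to the all-gene median these PA28 genes stood at -0.11 and -0.03, with overlap in every pair of groups, and leaving out 1 library gave -0.10 to 0.16 and -0.02 to 0.20 before the subtraction.

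Constitutive catalytic genes were sampled by few molecules in the T cells. Psmb5 ran from 4.81 to 15.5 (median 9.23) in WT, 9.91 to 18.6 (median 11.97) in muMt-/- and 9.14 to 22.2 (median 12.95) in GABA-implanted mice. Psmb6 ran from 2.21 to 9.62 (median 6.53), from 1.12 to 13.7 (median 8.21) and from 3.94 to 14.2 (median 7.52). Psmb7 ran from 4.42 to 14.7 (median 6.99), from 5.61 to 17.99 (median 8.87) and from 7.63 to 10.97 (median 7.97). Relative to the all-gene median their muMt-/- estimates were 0.30, 0.28 and 0.22, and every range overlapped the others. Before that subtraction of 0.15, leaving out 1 library gave 0.29 to 0.53, 0.19 to 0.60 and 0.08 to 0.51, so these estimates rest in part on single libraries.

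With GABA against its absence in muMt-/- CD8+ T cells, 0 of 47 genes passed by edgeR (0.0% of all genes) or DESeq2, and 0 had an unadjusted p under 0.05, where 2.01% of all genes were higher and 1.7% lower. The lowest p-values, not passing, were those of the inhibitor gene Psmf1 (1.39, unadjusted p = 0.0529), Psme2 (0.46, unadjusted p = 0.0731) and Psmb3 (0.47, unadjusted p = 0.0914). Without GABA-implanted replicate 1 Psme2 was at 0.25 (edgeR adjusted p = 0.992). Psmb10 was at -0.45, Psmb9 at 0.35, Psmb8 at 0.01, Psme1 at 0.20, Psmb5 at 0.27, Psmb6 at 0.01 and Psmb7 at -0.09. On leaving out 1 library Psmb9 ran from 0.16 to 0.58, Psmb8 from -0.09 to 0.08, Psme1 from 0.03 to 0.33, Psmb5 from 0.12 to 0.39, Psmb6 from -0.28 to 0.18 and Psmb7 from -0.23 to 0.20. For GABA-implanted against WT CD8+ T cells edgeR and DESeq2 again called 0 genes (background 0.0%), and 4 were higher at an unadjusted p under 0.05, where 5.99% of all genes were. These were Psmg2 (1.76), Psma1 (0.84), Psmb5 (0.73) and Psme2 (0.58), with edgeR adjusted p of 0.558, 0.558, 0.610 and 0.654, and Psme2 was at 0.33 without GABA-implanted replicate 1. The all-gene median was 0.21 there, and 28 of 47 genes lay above it. Psmd2, a scaffold subunit of the cap, was the single gene whose groups did not overlap (lower, -0.45), where 0.15% of all genes were lower without overlap. It did not pass by edgeR (unadjusted p = 0.108, edgeR adjusted p = 0.767). Psmb8 was at 0.27, Psmb9 at 0.20, Psmb10 at -0.08, Psme1 at 0.25, Psmb6 at 0.44 and Psmb7 at 0.28. Leaving out 1 library gave 0.17 to 0.35, -0.01 to 0.39, -0.23 to 0.06, 0.08 to 0.36, 0.11 to 0.58 and 0.11 to 0.39 in that order. None of the pathway genes passed by edgeR in CD8+ T cells, and at most 3 of a list had an unadjusted p under 0.05.

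Whether the muMt-/- difference was unlike in the cell types was tested as an interaction over 36 libraries. By edgeR no proteasome gene passed (0.0118% of all genes did), and DESeq2 called 0. At an unadjusted p under 0.05, 4 had a lower change of muMt-/- against WT in TAMs than in CD8+ T cells, where 8.32% of all genes did. Psmb10 had the lowest p (-1.15, SE 0.349, unadjusted p = 0.00179, edgeR adjusted p = 0.217), or -0.85 relative to the all-gene median of -0.30. Psmb4 (-1.01, edgeR adjusted p = 0.223), Psma1 (-1.11, edgeR adjusted p = 0.263) and Psmg2 (-2.17, edgeR adjusted p = 0.392) followed. None of the other catalytic or PA28 genes passed, with Psmb8 at -0.50, Psmb9 at -0.72, Psme1 at -0.64, Psme2 at -0.02, Psmb5 at -0.30, Psmb6 at -0.79 and Psmb7 at -0.46. On leaving out 1 library Psmb5 ran from -0.39 to -0.14, Psmb7 from -0.63 to -0.18 and Psme2 from -0.12 to 0.13. So the Psmb10 difference in TAMs was not shown to differ from that in CD8+ T cells. Macrophage markers had estimates below 0 in the same interaction, and none passed. Among them were C1qb (-2.92, edgeR adjusted p = 0.106), Lyz2 (-3.44, edgeR adjusted p = 0.147) and Csf1r (-2.51, edgeR adjusted p = 0.217). The part of macrophage RNA in CD8+ T cell libraries in these differences was not tested. The interaction fit for GABA called 0 genes (0.0% of all genes) by edgeR and DESeq2. Psmd14 (0.89, unadjusted p = 0.0368) and Psme2 (-0.57, unadjusted p = 0.0481) were the genes under 0.05 unadjusted, where 2.58% of all genes were higher and 1.95% lower. Psmb10 came next (0.67, unadjusted p = 0.0516), and the edgeR adjusted p was 0.994 for each. Without GABA-implanted CD8+ T cell replicate 1 Psme2 was at -0.37. Psmb8 was at 0.04, Psmb9 at 0.02, Psme1 at 0.21, Psmb5 at -0.17, Psmb6 at 0.10 and Psmb7 at 0.28, none passing. Leaving out 1 library gave -0.07 to 0.16, -0.25 to 0.24, -0.02 to 0.39, -0.34 to -0.04, -0.10 to 0.36 and -0.01 to 0.42 in that order.

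Each immunoproteasome subunit was then set against the constitutive subunit it replaces, as its share of the pair's molecules within a library. The Psmb10 share of Psmb10 and Psmb7 ran from 64.1% to 74.8% (median 70.0%) in WT TAMs, 39.0% to 66.7% (median 60.6%) in muMt-/- TAMs and 41.9% to 66.3% (median 59.4%) with GABA. In 5 of 6 muMt-/- and 4 of 6 GABA-implanted libraries it lay below every WT library. The mean was 69.6% ± 4.598 (SD, n = 6), 57.9% ± 9.95 and 57.4% ± 8.90, a difference from WT of -11.7 and -12.2 percentage points. Neither difference passed an exact two-sided permutation test over libraries with adjustment over 27 differences (p = 0.0108 and adjusted p = 0.146 for each, where 0.0022 is the smallest p that 6 against 6 allows).

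The Psmb8 share of Psmb8 and Psmb5 ran from 75.8% to 81.2% (median 80.1%) in WT TAMs, 65.6% to 79.5% (median 73.8%) in muMt-/- TAMs and 55.8% to 79.5% (median 74.1%) with GABA. It lay below every WT library in 4 of 6 muMt-/- libraries, with a difference in means of -5.35 points (exact permutation p = 0.0173, adjusted p = 0.156). With GABA the difference from WT was -6.99 points (exact permutation p = 0.0498, adjusted p = 0.269), or -3.74 points without GABA-implanted replicate 1 (exact permutation p = 0.0996, adjusted p = 0.448). The Psmb9 share of Psmb9 and Psmb6 ran from 40.7% to 63.1% (median 48.3%) in WT TAMs, 17.6% to 59.4% (median 36.2%) in muMt-/- TAMs and 20% to 53.7% (median 45.8%) with GABA, and its groups overlapped (-12.1 points, exact permutation p = 0.104, adjusted p = 0.468). In CD8+ T cells mean shares of Psmb10 were 57.8%, 59.9% and 52.0%, of Psmb8 73.1%, 71.1% and 67.7%, and of Psmb9 43.1%, 44.7% and 45.1%. Without GABA-implanted CD8+ T cell replicate 1, at a Psmb9 share of 9.09%, the difference with GABA went from 2.04 to 9.24 points against WT and from 0.381 to 7.58 points against muMt-/-. WT CD8+ T cell replicate 3 had a Psmb9 share of 0%, from 1 molecule, against 42.9% to 64.3% in the other WT libraries. Leaving out that library alone raises the WT mean above those of the other groups, so both differences from WT turn negative. None of the 27 differences passed. The share of Psmb10 in WT TAMs exceeded that in WT CD8+ T cells by 11.8 points (exact permutation p = 0.0476, adjusted p = 0.269). T cell shares were coarse, since the Psmb9 and Psmb6 pair gave 1 to 21 molecules (median 10) in a WT library.

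**Figure D3:**
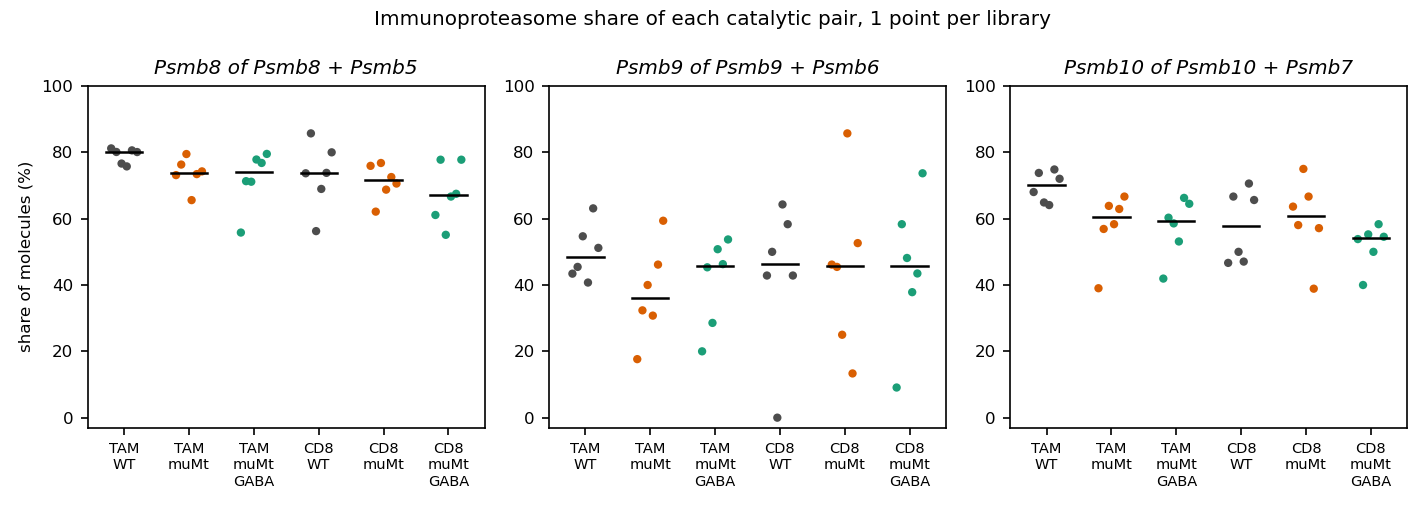
Share of Psmb8, Psmb9 and Psmb10 in the molecules of each catalytic pair (%), per library, in the 6 groups. Points are libraries and lines medians; the WT TAM points for Psmb10 run from 64.1% to 74.8% and those of muMt-/- TAMs from 39.0% to 66.7%.

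TAMs and CD8+ T cells were compared within each group on a scale over all 36 libraries. In WT mice the median log2 difference over all genes was 0.36, so the main differences are also given relative to it. By edgeR 10 of 47 proteasome genes were higher in TAMs, against 16.8% of all genes, and 0 lower, against 5.99%, and 17 were higher at an unadjusted p under 0.05, against 24.2%, and none lower. DESeq2 called 7 higher and 0 lower. The 10 called by edgeR were 21.3% of the genes, near the background share. Psmb10 ran from 31.9 to 44.1 (median 40.6) in TAMs and from 7.39 to 26.4 (median 19.4) in CD8+ T cells, without overlap (log2 difference 1.19, or 0.83 relative, edgeR adjusted p = 0.000181). Psmb8 ran from 63.7 to 91.7 (median 79.3) and from 33.3 to 60.3 (median 47.1), also without overlap (0.86, or 0.50 relative, edgeR adjusted p = 0.00120). Psma1, of the alpha ring, differed most among those called, from 23.5 to 30.4 (median 27.03) in TAMs against 5.34 to 22.2 (median 11.9) in CD8+ T cells (1.39, or 1.03 relative, edgeR adjusted p = 4.51e-05). Psme2 ran from 34.7 to 45.0 (median 39.0) and from 11.1 to 30.2 (median 27.6) and also passed (0.77, or 0.41 relative, edgeR adjusted p = 0.00594), as did its copy Psme2b (0.74).

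The remaining calls in WT mice were Psma4 (1.03) and Psma5 (0.95) of the alpha ring, the structural Psmb2 (0.90) and Psmb4 (0.76), and the ATPase gene Psmc1 (0.84). Psmb9 ran from 13.3 to 24.3 (median 15.98) in TAMs and from 0 to 16.5 (median 12.3) in CD8+ T cells, and did not pass (0.71, edgeR adjusted p = 0.233). Psme1 ran from 48.0 to 67.7 (median 58.6) and from 28.9 to 60.7 (median 36.7), and did not pass (0.65, edgeR adjusted p = 0.107). None of the constitutive catalytic genes passed, with Psmb5 at 0.43, Psmb6 at 0.75 and Psmb7 at 0.51, and levels that overlapped. Psmb5 ran from 0.28 to 0.48 on leaving out 1 library. In 7 genes the libraries did not overlap, where 11.5% of all genes were higher without overlap. These were Psma1, Psma4, Psmb8, Psmb10, Psme2, Psme2b and the chaperone gene Psmg4. Scaling by total molecules brought the all-gene median to 0.04 and left 3 calls, Psma1, Psma4 and Psmb10. Leaving out CD8+ T cell replicate 1 lost Psmb2 (edgeR adjusted p = 0.0745). Psmb4 was lost without CD8+ T cell replicate 2 or TAM replicate 2 or 4 (edgeR adjusted p up to 0.0596), and Psmc1 without CD8+ T cell replicate 1, 3 or 4 or TAM replicate 2 (edgeR adjusted p up to 0.0803). The Psmc1 estimate ran from 0.67 to 1.34 over the 12 fits that left out 1 library.

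Genes around the proteasome differed between the cell types in either direction in WT mice, where 16.8% of all genes were called higher and 5.99% lower. The values here include the all-gene median of 0.36. In the interferon gamma receptor list Ifngr2 (2.77), Irf2 (1.12), Irf8 (0.92) and Irf1 (0.78) were higher in TAMs by edgeR, and Ifngr1 (-1.94) and Jak1 (-0.88) lower. Receptor chains thus had opposite signs. Of the MHC class I peptide loading genes 6 of 10 were higher, led by the tapasin gene Tapbp (1.59) and Pdia3 (1.08), with Tap1 at 0.82 and B2m at 0.75. The proteasome maturation gene Pomp (1.04) was the 1 of 10 other subunit and assembly genes that passed, and Nfe2l2 (1.93), a transcription factor of the oxidative stress response, the 1 of 4 regulators. The segregase gene Vcp (0.75) passed as well.

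In muMt-/- mice 3 of 47 proteasome genes were higher in TAMs than in CD8+ T cells by edgeR, where 13.6% of all genes were and the all-gene median was 0.10. These were Psmb2 (0.82, edgeR adjusted p = 0.0137), Psme2 (0.75, edgeR adjusted p = 0.00442) and Psme2b (0.86, edgeR adjusted p = 0.000962), each without overlap between libraries, against 7.11% of all genes. The calls of Psme2 and its copy Psme2b are not separate results. Psmb10 ran from 17.7 to 29.3 (median 25.1) in TAMs and from 18.96 to 30.1 (median 22.8) in CD8+ T cells, so the ranges overlapped for most of their length (0.05). Psmb8 was at 0.36 (edgeR adjusted p = 0.216), Psmb9 at -0.01, Psme1 at 0.01, Psmb5 at 0.12, Psmb6 at -0.04 and Psmb7 at 0.05, none passing. Leaving out 1 library gave 0.18 to 0.42, -0.26 to 0.14, -0.23 to 0.13, 0.02 to 0.28, -0.27 to 0.17 and -0.09 to 0.34 in that order, and -0.13 to 0.15 for Psmb10. Without CD8+ T cell replicate 1 the Psmb2 call was lost (edgeR adjusted p = 0.0529), and without TAM replicate 5 the count was 6. Macrophage markers took a median of 0.120% of molecules in these CD8+ T cell libraries and 0.171% with GABA, against 0.0349% in WT mice. Genes around the proteasome that were higher included Zfand5 (1.30), Nfe2l2 (1.94) and 4 peptide loading genes. Those of the interferon gamma receptor list are not given for this comparison.

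In GABA-implanted mice 4 of 47 genes were higher in TAMs by edgeR, against 14.1% of all genes and an all-gene median of 0.12. Psmb10 ran from 9.97 to 34.9 (median 30.2) in TAMs and from 12.1 to 21.6 (median 15.7) in CD8+ T cells, with 1 low TAM library making the groups overlap (0.71, edgeR adjusted p = 0.0210). Psme4 (0.88, edgeR adjusted p = 0.0289), Psma7 (0.53, edgeR adjusted p = 0.0350) and Psmb2 (0.66, edgeR adjusted p = 0.0363) also passed. All 4 calls were lost in the fit on these 12 libraries alone and on scaling by total molecules, where Psmb3 was called lower. Psma5 alone had groups without overlap, where 6.95% of all genes were higher without overlap. Psmb8 was at 0.40 (edgeR adjusted p = 0.152), Psmb9 at 0.02, Psme1 at 0.21, Psme2 at 0.19, Psmb5 at -0.05, Psmb6 at 0.06 and Psmb7 at 0.33, none passing. On leaving out 1 library Psmb8 ran from 0.25 to 0.45, Psmb9 from -0.25 to 0.15, Psme1 from -0.04 to 0.31, Psme2 from 0.04 to 0.38, Psmb5 from -0.20 to 0.09, Psmb6 from -0.10 to 0.32 and Psmb7 from 0.14 to 0.38. Each call was lost in several fits that left out 1 library, while the estimates stayed positive. They ran from 0.59 to 0.82 for Psmb10, 0.71 to 1.09 for Psme4, 0.36 to 0.61 for Psma7 and 0.48 to 0.94 for Psmb2. Without CD8+ T cell replicate 4 or TAM replicate 5 the count was 0, and without CD8+ T cell replicate 1 it was 7. Of 12 such fits Psmb10 was lost in 6 (without CD8+ T cell replicate 2 or 4 or TAM replicate 2, 4, 5 or 6; edgeR adjusted p up to 0.0874). Psmb2 was lost in 8 (without CD8+ T cell replicate 2, 3, 4, 5 or 6 or TAM replicate 3, 4 or 5; edgeR adjusted p up to 0.168). Psme4 was lost in 9, without CD8+ T cell replicate 2, 3, 4, 5 or 6 or TAM replicate 1, 3, 4 or 5 (edgeR adjusted p up to 0.103). Psma7 was lost in 9 as well, without CD8+ T cell replicate 3, 4, 5 or 6 or TAM replicate 1, 2, 3, 4 or 5 (edgeR adjusted p up to 0.206). Genes around the proteasome that were higher included Zfand5 (1.07), Nfe2l2 (1.70) and 4 peptide loading genes, and the interferon gamma receptor list is again not given.

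Promoter sequences of the genes discussed were read from RefSeq (build GRCm38.p6), in which all 50 genes had an entry by symbol. Windows of 300 bases around the start were searched on both strands for 3 motifs. The interferon regulatory factor motif, GAAA, any 2 bases and GAAA again, was in 3.44% of all 32841 windows and in 5 of 42 proteasome genes with a window (Psmb3, Psmd4, Psmd9, Psme1 and Psmg4). The gamma-activated motif TTCNNNGAA was in 8.30% of windows and in 3 genes (Psmb8, Psmd2 and Psmg1). The antioxidant response core TGACNNNGC was in 12.4% and in 6 genes (Psmb5, Psmb6, Psmc6, Psmd12, Psmd9 and Psme4). The 42 genes had 45 windows, so these counts of genes and the shares of all windows are unlike measures. A match is a description of letters and no match says only that they are not in the window. The 250 bases upstream are given 5′ to 3′ for Psmb3, which fell in muMt-/- TAMs, and for the catalytic partners Psmb8 and Psmb5. Those of Psmb10, which also fell there, hold none of the 3 motifs. The 225 bases between the divergent RefSeq starts of Psmb9 and Tap1, which the longer GENCODE gene of Psmb9 covers, are given too, and hold none of the 3 motifs. Positions are chr11:97703184-97703433 (plus strand) for Psmb3, chr17:34197945-34198194 (plus strand) for Psmb8, chr14:54617996-54618245 (minus strand) for Psmb5 and chr17:34187331-34187555 (plus strand) for the interval. Capitals mark the interferon regulatory factor match in Psmb3, the gamma-activated match in Psmb8 and the antioxidant response match in Psmb5.
Psmb3 upstream: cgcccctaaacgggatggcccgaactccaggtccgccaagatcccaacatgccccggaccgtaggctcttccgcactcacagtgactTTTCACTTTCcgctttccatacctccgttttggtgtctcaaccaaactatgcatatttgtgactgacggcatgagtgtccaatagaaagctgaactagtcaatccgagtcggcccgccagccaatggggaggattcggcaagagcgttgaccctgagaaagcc
Psmb8 upstream: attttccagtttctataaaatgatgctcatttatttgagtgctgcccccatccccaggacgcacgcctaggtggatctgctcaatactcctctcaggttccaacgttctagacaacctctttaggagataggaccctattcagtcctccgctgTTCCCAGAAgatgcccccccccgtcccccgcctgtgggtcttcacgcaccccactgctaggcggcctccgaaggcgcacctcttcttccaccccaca
Psmb5 upstream: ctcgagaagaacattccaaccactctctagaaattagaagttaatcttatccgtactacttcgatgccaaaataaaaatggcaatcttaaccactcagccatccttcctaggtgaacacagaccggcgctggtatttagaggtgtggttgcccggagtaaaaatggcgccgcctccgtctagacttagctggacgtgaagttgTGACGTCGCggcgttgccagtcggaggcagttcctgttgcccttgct
Psmb9-Tap1 interval: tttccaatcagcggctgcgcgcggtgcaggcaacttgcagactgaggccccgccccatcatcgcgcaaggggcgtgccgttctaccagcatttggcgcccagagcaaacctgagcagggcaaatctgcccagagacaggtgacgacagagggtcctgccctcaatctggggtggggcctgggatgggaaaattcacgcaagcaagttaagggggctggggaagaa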

How the data were processed

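The deposited table holds raw molecule counts per gene for 36 libraries, made by the authors with STAR on mm10 and refFlat genes. EdgeR 4.0.16 (R 4.3.3) with TMM scaling and its quasi-likelihood F-test was fitted over the 18 libraries of a cell type, or all 36 across cell types, to genes with a mean DESeq2-normalized level above 1, with Benjamini-Hochberg adjustment over all genes at 0.05. DESeq2 1.42.0 was an alternative. Library differences in pair shares were tested by exact permutation (scipy 1.17.1). Scripts were tested on simulated data. Named in every comparison were Psmb8, Psmb9, Psmb10, Psme1, Psme2, Psmb5, Psmb6 and Psmb7, every other called gene up to 10, the 3 lowest p-values where none was called, undetected or untested members, some called pathway genes, and the extremes of each role. Members and lists were chosen with earlier results of these data known. Alternatives were other size factors, no filter, total molecules, a depth covariate, replicate blocks, the 12 libraries compared, and leaving libraries out. Labels give no donor shared between cell types.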

Additional observations from a re-analysis of the deposited data

Results flagged for a closer look

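Of 84 groups of 6 libraries examined for a lowest or highest library far from the rest, 7 had one, and chance gives about 1 in 20. Psme2 in WT CD8+ T cell replicate 3 was at 6.63 normalized molecules, where the others ran from 14.4 to 17.5. Psmb5 in muMt-/- CD8+ T cell replicate 2 was at 18.6, above the others at 9.91 to 13.1. Psmb6 in GABA-implanted TAM replicate 1 was at 10.6, below the others at 25.4 to 29.6, and the same library had a Psmb8 share of Psmb8 and Psmb5 of 55.8%, where the others ran from 71.1% to 79.5%. Psmb7 in muMt-/- CD8+ T cell replicate 5 was at 17.99, above 5.61 to 9.99. The Psmb9 share of Psmb9 and Psmb6 was 0% in WT CD8+ T cell replicate 3, from 1 molecule in the pair, against 42.9% to 64.3% in the others. The Psmb10 share of Psmb10 and Psmb7 was 39.0% in muMt-/- TAM replicate 1, below 56.9% to 66.7%.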

How the results depend on the processing

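For muMt-/- against WT TAMs the 2 called genes became 4 without the filter on low levels, 3 in the fit on 12 libraries and 0 with log2 molecules as a covariate (where calls over all genes went from 194 to 11). They became 1 without the TAM libraries standing apart (muMt-/- replicate 4 and GABA-implanted replicate 1) and 0 to 2 on leaving out 1 library. With the replicate number as a block the count was 1, the Psmb3 call being lost with an edgeR adjusted p of 0.05004. The numbers share no stated source, and over 90 same-number pairs the correlation of deviations ran from -0.31 to 0.42, and in 15 of the 90 it was the highest that the library had with the other group. For TAMs against CD8+ T cells in WT mice the 10 became 3 by total molecules and 8 to 11 on leaving out 1 library. In muMt-/- mice the 3 became 3 to 6. In GABA-implanted mice the 4 became 2 without the filter, 1 by total molecules (Psmb3, lower), 0 in the fit on 12 libraries, 7 without the libraries standing apart and 0 to 7 on leaving out 1 library. The other counts were 0 in every fit run, edgeR and DESeq2 alike. As a log2 ratio the Psmb9 to Psmb6 difference reversed for CD8+ T cells of muMt-/- (-0.12) and GABA-implanted (-0.053) against WT mice. Without the libraries standing apart the Psmb10 share difference of GABA-implanted from other muMt-/- TAMs turned from -0.503 to 2.68 points. With the 10 most abundant genes taken out, proteasome genes took 1.002%, 0.928% and 0.964% of molecules in TAMs and 0.861%, 0.872% and 0.883% in CD8+ T cells (WT, muMt-/-, GABA). The cause of these changes was not tested. Leaving out the 3 libraries standing apart, and single libraries across cell types, was chosen after seeing the data. Depth limits the CD8+ T cell values.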
